A study of Mus musculus with 6 samples.

Results

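The genes described here are regulators of the dermal condensate, the cluster of fibroblasts that gathers beneath each hair placode and becomes the dermal papilla of the follicle. They were measured in the back skin of mouse embryos at E15.5, while follicles form. Of 9 listed genes 8 could be read (Sox2, Sox18, Alx4, Tbx18, Prdm1, Foxd1, Cxcr4 and Cdkn1a), through 10 probe sets that carry 1 gene symbol, out of 18193 genes with such a probe set. Enpp2 was not analysed here. Tbx18 and Cdkn1a had a pair of probe sets each, and the other 6 genes had 1.

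RNA was hybridised to Affymetrix MOE430 arrays, which read each transcript through sets of short probes. The 6 arrays were 3 of Fzd6-/- embryos (knockout) and 3 of Fzd6+/- embryos (control), all of mixed C57BL6/129 background. Fzd6 encodes a Frizzled receptor of planar cell polarity, by which follicles take their common tilt along the body. The controls also carry 1 mutant copy, so neither group was wild type. The labels call the samples biological replicates without saying whether each was 1 embryo, so p-values measure the spread between these samples. Values are RMA expression values on the log2 scale, on which a difference of 1 is a doubling. Levels of different probe sets depend on their probes, so each gene was compared only with itself across arrays.

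Condensate formation is set off by the epithelium. Wnt signals prime the upper dermis, and Fgf20 and Shh from the placode recruit fibroblasts, which gather, leave the cell cycle and switch on a set of transcription factors. The condensate then signals back to the epithelium. Most of its genes are also used elsewhere in skin: Sox2 in Merkel cells and glia, Sox18 in endothelium, Tbx18 in mural cells of vessels, and Prdm1 and Cdkn1a in differentiating keratinocytes. In a sample of whole skin, fewer cells of a type and less RNA per cell cannot be told apart.

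The upstream sequences of Tbx18 and Cdkn1a are shown because these genes had the largest differences and were read by more than 1 probe set. The sequences are from RefSeq on GRCm38.p6, which held 6 of the 8 genes, and give the 150 bases before the start. Capitals mark letters found on either strand: the GC box (GGGCGG), the CCAAT box (CCAAT) and the p53 half-site. The TATA box (TATAAA), the LEF/TCF motif (CTTTGA) and the SOX core (ACAAT) were also searched and are not in these windows.
Tbx18, minus strand of chr9:87731261-87731410: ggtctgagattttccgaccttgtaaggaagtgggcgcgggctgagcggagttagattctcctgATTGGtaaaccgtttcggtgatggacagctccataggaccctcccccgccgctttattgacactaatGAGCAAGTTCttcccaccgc
Cdkn1a, first start, plus strand of chr17:29090829-29090978: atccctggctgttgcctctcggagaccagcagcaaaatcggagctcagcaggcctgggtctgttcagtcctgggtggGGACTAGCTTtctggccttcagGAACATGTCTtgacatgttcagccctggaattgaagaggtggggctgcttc
Cdkn1a, next start, plus strand of chr17:29093619-29093768: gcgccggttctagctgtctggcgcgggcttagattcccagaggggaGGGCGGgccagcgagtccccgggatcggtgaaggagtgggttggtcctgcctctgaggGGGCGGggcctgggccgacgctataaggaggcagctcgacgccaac
The Tbx18 window holds a CCAAT box and a p53 half-site. The upstream half-site of Cdkn1a begins 73 bases before its first start and the other 51 bases before it. Pairs of half-sites with at most 13 bases between them were in 0.0244% of the 32851 windows of this length, at least 1 half-site in 4.01%, the GC box in 28.6% and the CCAAT box in 24.5%. The TATA box was in 7.57%, the LEF/TCF motif in 7.93% and the SOX core in 17.4%. Each match describes letters only.

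As a check of the labels, the brightest Fzd6 probe set read 9.07, 9.01 and 8.71 in knockouts 1 to 3, against 9.50, 9.51 and 9.11 in controls 1 to 3. The groups did not overlap, and the difference was −0.44 (95% confidence interval −0.78 to −0.11, limma adjusted p = 0.909). A dimmer probe set differed by −0.67, also without overlap (−0.87 to −0.47, limma adjusted p = 0.864), and another by −0.0097 (−0.21 to 0.19) with overlap. The sources used here do not place the probes against the part that was deleted.

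Replicate 1 of both groups stood apart from the other arrays. The mean level of 10 endothelium markers was 7.27 in knockout 1 and 7.71 in control 1, and lay between 8.38 and 8.46 in the other 4 arrays. Col1a1, a main collagen of the dermis, read 9.94 in knockout 1 and 10.24 in control 1, and 11.58 to 12.10 elsewhere. Adipoq, a fat cell hormone, read 8.64 in control 1 and at most 3.48 in any other array. Keratinocyte and dermal markers were bright on all arrays, with Krt14 at 12.22 or more and Col3a1 at 13.63 or more. Each condensate gene is therefore also given without replicate 1 of both groups.

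No condensate gene passed the test between genotypes. Across the 10 probe sets 4 had higher and 6 lower values in knockout skin, and 0 passed limma's adjusted p of 0.05, as did 0% of all 45037 probe sets. Their adjusted p-values lay between 0.909 and 0.992. The dimmer probe set of Tbx18 had an unadjusted p under 0.05, which makes 1 of 10 beside 5.21% of all probe sets. The same probe set was the 1 of 10 whose groups did not overlap, beside 11.6% of all. The median difference of the 8 genes, each by its brightest probe set, was −0.031, and that of all 18193 genes was 0.0070. Without replicate 1 of both groups these medians were −0.069 and 0.019. Leaving out single arrays moved the median of the 8 genes between −0.11, without control 1, and 0.020, without control 2.

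**Figure D1:**
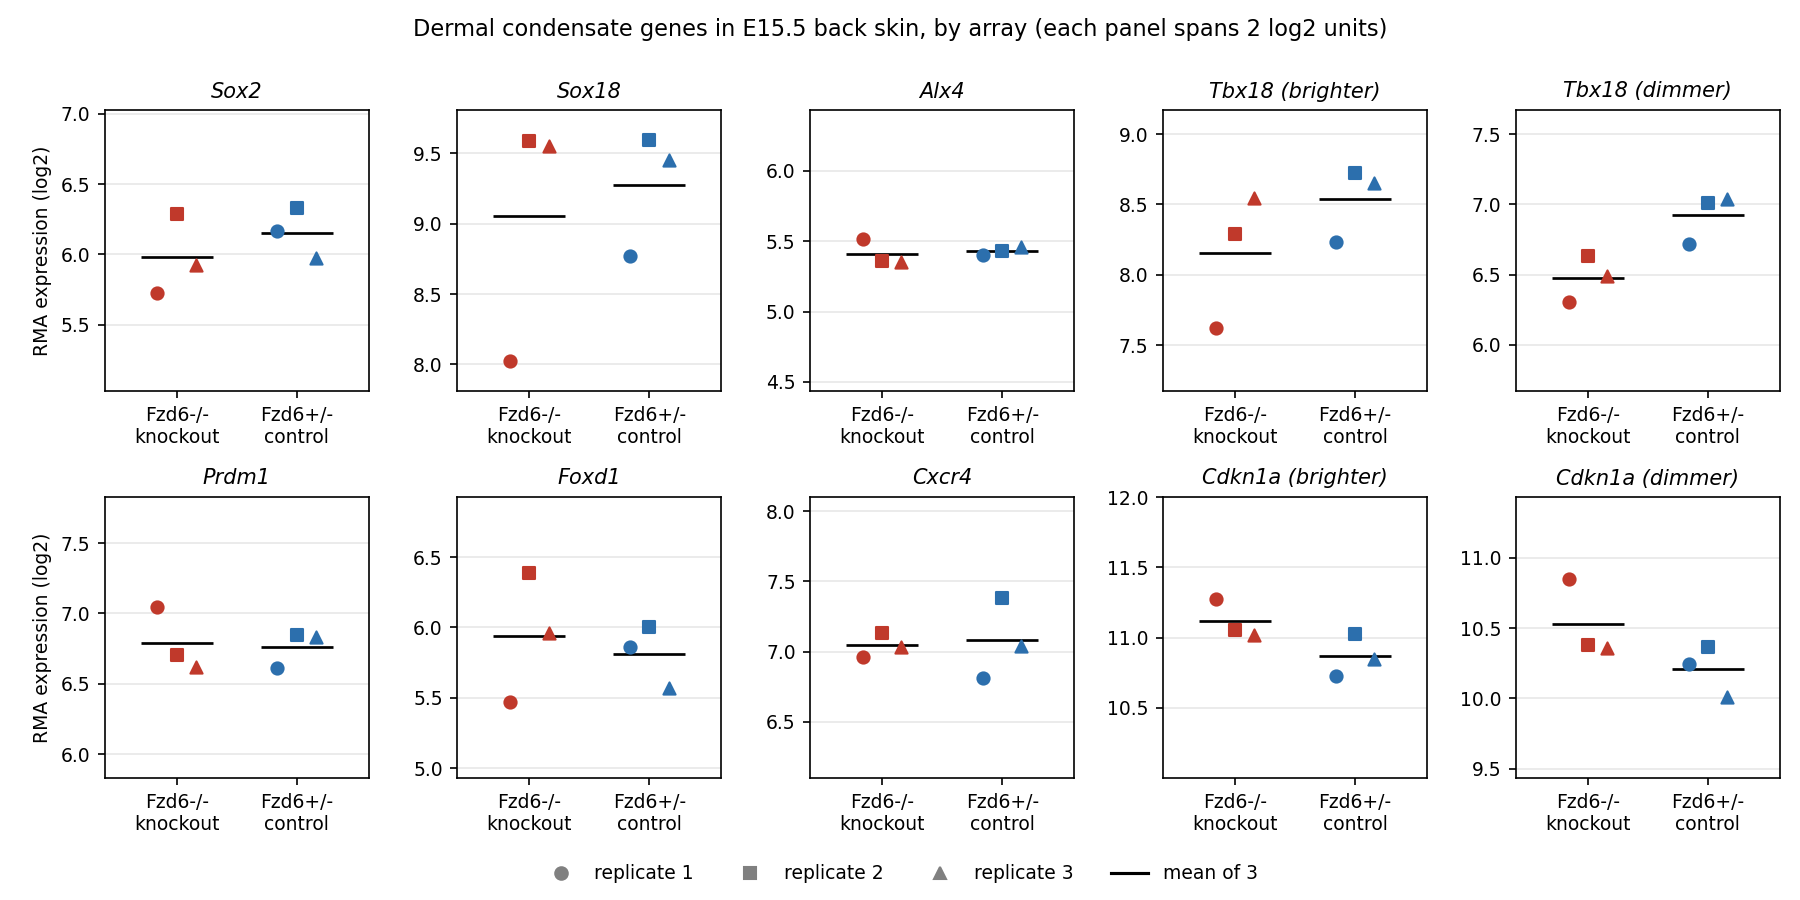
RMA expression (log2, vertical axis) of the 10 probe sets in 3 knockout arrays (red) and 3 control arrays (blue), with marker shapes for the replicate number and a bar for the mean of 3. All panels span the same number of log2 units, and only the dimmer Tbx18 probe set separates the groups, at 6.30 to 6.63 in knockouts and 6.72 to 7.04 in controls.

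Tbx18, a T-box transcription factor that marks precursors of the dermal papilla, had the largest negative difference of these genes. Its dimmer probe set read 6.30, 6.63 and 6.49 in knockouts 1 to 3, against 6.72, 7.01 and 7.04 in controls 1 to 3. Every knockout array lay below every control. The means were 6.47 ± 0.16 in knockouts and 6.92 ± 0.18 in controls (SD, n = 3 each), a difference of −0.45 (−0.74 to −0.16), or 0.733-fold. The limma p for it was 0.00802 unadjusted and 0.909 adjusted.

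The brighter Tbx18 probe set read 7.62, 8.29 and 8.54 in knockouts 1 to 3, against 8.23, 8.72 and 8.66 in controls 1 to 3. Here the groups overlapped, since control 1 lay below knockouts 2 and 3. The difference was −0.38 (−0.95 to 0.18, limma adjusted p = 0.914), and it was −0.12 without knockout 1. Within replicate numbers 1 to 3 the knockout differed from its control by −0.61, −0.43 and −0.11 in the brighter and by −0.41, −0.38 and −0.55 in the dimmer probe set.

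Dermal fibroblast markers are given beside Tbx18. By their brightest probe sets, of 9 measured, 6 were lower and 3 higher in knockouts and 0 passed the test, with mean levels of 11.42 to 12.27 in knockouts and 11.69 to 12.22 in controls and none below the array medians. The groups overlapped in each of these 9. A dimmer probe set of Pdgfra, a receptor of fibroblasts, did separate them, as did 11.6% of all probe sets. It read 6.27, 6.57 and 6.47 in knockouts 1 to 3, against 6.73, 6.62 and 6.66 in controls 1 to 3 (−0.23, limma adjusted p = 0.909). The other dimmer Pdgfra probe set differed by 0.020 with overlap. Without replicate 1 of both groups, 2 of the 9 were lower, with a median difference of 0.046. Tbx18 then stood at −0.27 in its brighter and −0.46 in its dimmer probe set. Of the list, Dpt differed by 0.16 and Prrx1 by −0.29 over all arrays. Within replicate numbers 1 to 3 Prrx1 differed by −0.46, −0.15 and −0.27, and its dimmer probe sets differed by −0.38 to 0.12 over all arrays. The part of fibroblasts or of mural cells in the Tbx18 values was not tested.

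Sox18, an HMG-box transcription factor of condensates and of vessel endothelium, varied most of these genes between arrays. It read 8.02, 9.59 and 9.56 in knockouts 1 to 3, against 8.77, 9.60 and 9.46 in controls 1 to 3. Both replicate 1 arrays were low, and the other 4 lay within 0.14 of one another. Its residual SD of 0.71 stood at the 99.7th percentile of all probe sets. The difference was −0.22 (−1.22 to 0.78, limma adjusted p = 0.975), and it was 0.30 without knockout 1 and 0.046 without replicate 1 of both groups.

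Endothelium markers were low in the same arrays. Of 10 measured, 8 were lower and 2 higher in knockouts with 0 past the test, at mean levels of 7.27 to 8.46 in knockouts and 7.71 to 8.43 in controls, and 3 of 10 were lower without replicate 1 of both groups. All 4 measured lymphatic markers were lower in knockouts with 0 past the test, at 7.01 to 7.43 in knockouts and 7.37 to 7.49 in controls, and 3 of 4 were lower without replicate 1. Prox1 of that list lay below the array medians. The part of these cells in the Sox18 values was not tested.

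Sox2, the HMG-box factor that marks condensates of guard, awl and auchene hairs, read 5.73, 6.29 and 5.92 in knockouts 1 to 3, against 6.16, 6.33 and 5.98 in controls 1 to 3. Knockouts 1 and 3 lay below all controls, and knockout 2 lay among them. The difference was −0.18 (−0.55 to 0.19, limma adjusted p = 0.929), or −0.047 without replicate 1 of both groups. Its signal was near the array medians of 5.99 to 6.03, exceeding them on 3 of 6 arrays.

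Sox2 is also a gene of Merkel cells and of glia. Of 7 Merkel cell markers 5 were higher and 2 lower, with 0 past the test and mean levels of 6.81 to 7.25 in knockouts and 6.84 to 7.03 in controls. Atoh1, Krt20 and Pou4f3, which define that cell, lay below the array medians. Of 8 nerve and Schwann cell markers 6 were lower and 2 higher, with 0 past the test. Their mean levels did not overlap, at 7.06 to 7.12 in knockouts and 7.20 to 7.33 in controls. Mean levels of the suprabasal keratinocyte and melanocyte lists did not overlap either. Of the nerve list, Nefl had the largest difference, at −0.56, and −0.66 in its dimmer probe set. It was the 1 of 8 whose groups did not overlap, beside 11.6% of all probe sets. The 2 higher markers were Sox10 (0.11) and S100b (0.010). Nefl and S100b lay below the array medians. The part of either cell type in the Sox2 values was not tested.

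Foxd1, a forkhead factor of condensates and of kidney stroma, read 5.47, 6.39 and 5.96 in knockouts 1 to 3, against 5.86, 6.01 and 5.57 in controls 1 to 3. The knockouts held both the lowest and the highest array. The difference was 0.13 (−0.40 to 0.66, limma adjusted p = 0.971). It was 0.36 without knockout 1, −0.096 without knockout 2 and 0.39 without replicate 1 of both groups. Its signal exceeded the array median on 1 of 6 arrays.

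Alx4, a paired-type homeodomain factor of limb, skull and hair mesenchyme, was the steadiest and dim. It read 5.51, 5.36 and 5.35 in knockouts 1 to 3, against 5.40, 5.43 and 5.46 in controls 1 to 3. All 6 arrays lay within 0.16 of one another and below the array medians. The difference was −0.025 (−0.21 to 0.17, limma adjusted p = 0.987), and −0.092 without replicate 1 of both groups. Differences in a rare cell population may not be detectable at this signal.

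Prdm1, the zinc-finger repressor also called Blimp1, read 7.04, 6.70 and 6.62 in knockouts 1 to 3, against 6.61, 6.85 and 6.84 in controls 1 to 3. Knockout 1 was the highest array and control 1 the lowest, so replicate 1 ran against the other numbers. The difference was 0.024 (−0.28 to 0.33, limma adjusted p = 0.992), and −0.18 without replicate 1 of both groups.

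Cxcr4, the receptor for the chemokine Cxcl12, read 6.96, 7.13 and 7.04 in knockouts 1 to 3, against 6.82, 7.39 and 7.04 in controls 1 to 3. All knockouts lay between the lowest and the highest control. The difference was −0.037 (−0.38 to 0.30, limma adjusted p = 0.990), and it was 0.12 without control 2 and −0.13 without replicate 1 of both groups. Cxcr4 is carried by leukocytes and vessels as well. Of 10 leukocyte and macrophage markers 7 were lower and 3 higher, with 0 past the test and a median difference of −0.010. Mean levels were 8.40 to 8.70 in knockouts and 8.25 to 8.72 in controls, none below the array medians. Laptm5 had the smallest p of the list (0.86, limma adjusted p = 0.909), with −0.040 to 0.23 in its dimmer probe sets. Without replicate 1 of both groups 3 of 10 were lower. The part of leukocytes and vessels in the Cxcr4 values was not tested.

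Cdkn1a, the cell cycle inhibitor p21, had the largest positive difference of these genes. Its brighter probe set read 11.28, 11.05 and 11.02 in knockouts 1 to 3, against 10.72, 11.02 and 10.85 in controls 1 to 3. Knockouts 1 and 2 lay above all controls, and knockout 3 lay slightly below control 2. The means were 11.12 ± 0.14 in knockouts and 10.87 ± 0.15 in controls (SD, n = 3 each), a difference of 0.25 (−0.012 to 0.51), or 1.19-fold (limma adjusted p = 0.909).

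The dimmer Cdkn1a probe set read 10.85, 10.38 and 10.36 in knockouts 1 to 3, against 10.25, 10.36 and 10.01 in controls 1 to 3. Knockout 3 again lay slightly below control 2. The difference was 0.32 (−0.045 to 0.69, limma adjusted p = 0.909). Knockout 1 was the highest array in both probe sets, and without it the differences were 0.17 in the brighter and 0.16 in the dimmer one. Without replicate 1 of both groups they were 0.098 and 0.18. In each pair of equal replicate number the knockout was higher, by 0.55, 0.031 and 0.17 in the brighter and by 0.61, 0.016 and 0.34 in the dimmer probe set.

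Cdkn1a is also a gene of differentiating keratinocytes and a target of p53. Of 10 suprabasal keratinocyte markers 9 were higher and 1 lower, with 0 past the test. Of these 10, 7 had an unadjusted limma p under 0.05, beside 5.21% of all probe sets. Their mean levels did not overlap, at 10.27 to 10.90 in knockouts and 9.94 to 10.13 in controls, highest in knockout 1, and Flg alone lay below the array medians. Without replicate 1 of both groups 9 of 10 were higher, with a median difference of 0.21. Involucrin (Ivl) read 8.10, 7.17 and 7.19 in knockouts 1 to 3, against 6.67, 6.25 and 6.46 in controls 1 to 3, a difference of 1.02 (0.43 to 1.61, limma adjusted p = 0.909), with 0.41 in its dimmer probe set. The part of these cells in the Cdkn1a and Prdm1 values was not tested.

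The other p53 targets were split between the directions. Of 11 measured, 7 were higher and 4 lower with 0 past the test and a median of 0.063, and without replicate 1 of both groups 5 were higher, with a median of −0.020. Mdm2, the inhibitor that p53 induces, read 8.89, 8.86 and 8.82 in knockouts 1 to 3, against 9.01, 9.16 and 9.13 in controls 1 to 3. All knockouts lay below all controls, opposite in direction to Cdkn1a, at −0.24 (−0.43 to −0.058, limma adjusted p = 0.909). Mdm2 was the 1 of 11 without overlap, beside 11.6% of all probe sets. Its dimmer probe sets differed by −0.28 and 0.12.

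**Figure D2:**
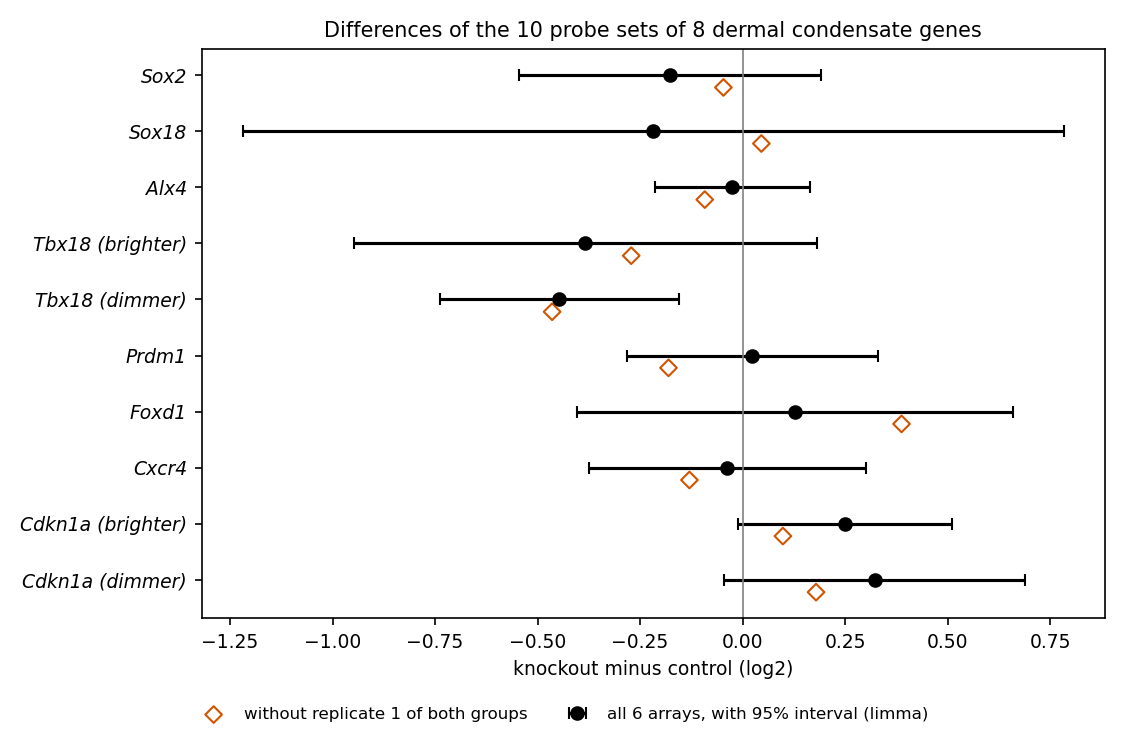
Difference between knockout and control (log2, horizontal axis) for each of the 10 probe sets, with 95% intervals from limma (black), and the difference without replicate 1 of both groups (open diamonds). The interval leaves out 0 for the dimmer Tbx18 probe set, and the diamonds of Sox18 and Prdm1 lie on the other side of 0 from the black points.

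The other genes of condensate signalling and fate were read from a list of 30, all measured. Of these, 24 were lower and 6 higher in knockout skin and 0 passed the test. The median difference was −0.16, against 0.0070 over all genes, of which 47.6% were lower. Their mean level was 7.83, 8.24 and 8.25 in knockouts 1 to 3, against 8.07, 8.40 and 8.25 in controls 1 to 3. Knockout 1 was the lowest array. Without replicate 1 of both groups 19 of 30 were lower, with a median of −0.060 against 0.019 over all genes. Dermal fibroblast and endothelium markers were also lowest in knockout 1. Most condensate genes are used elsewhere in skin too, and the part of other cells in these 30 was not tested.

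Dkk2, a secreted modulator of Wnt signalling, had the smallest p of that list. It read 7.92, 7.57 and 7.77 in knockouts 1 to 3, against 8.13, 7.96 and 8.08 in controls 1 to 3, with the difference at −0.30 (−0.56 to −0.046, limma adjusted p = 0.909). Its groups did not overlap, and neither did those of Fgf7 (−0.27), a growth factor that fibroblasts send to the epithelium. Hhip, a Hedgehog antagonist and target, differed by −0.22 with overlap, and its 3 dimmer probe sets by −0.10, −0.071 and 0.0075. The dimmer probe set of Fgf7 differed by −0.099. The groups did not overlap in 3 of the 30 genes, beside 11.6% of all probe sets. The third of these, Alpl, a phosphatase of the dermal papilla, ran the other way. It read 5.05, 4.94 and 5.37 in knockouts 1 to 3, against 4.93, 4.88 and 4.91 in controls 1 to 3 (0.21), and was named after its values were seen. Of the 30 genes 4 lay below the array medians, among them Alpl and Hhip.

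**Figure D3:**
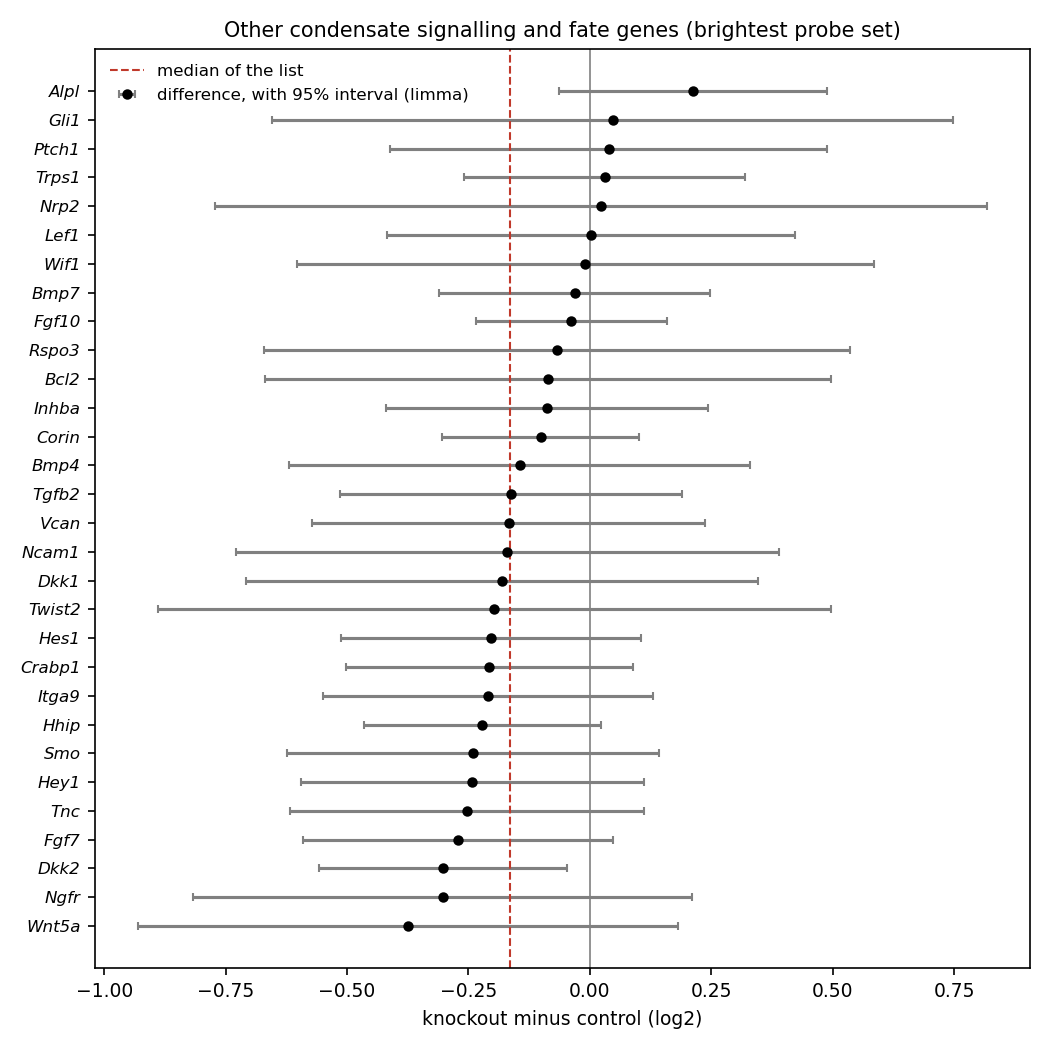
Difference between knockout and control (log2, horizontal axis) for the brightest probe set of 30 other condensate genes, with 95% intervals from limma and the median of the list (dashed line, −0.16). Points of 24 genes lie below 0, and the interval of Dkk2 alone leaves out 0.

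Genes of placode signalling, a list that also holds the receptor Edar, were split. Of 8 measured, 5 were higher and 3 lower with 0 past the test and a median of 0.030, at mean levels of 7.60 to 7.80 in knockouts and 7.57 to 7.82 in controls. Bmp2, a ligand of the placode, read 8.14, 8.19 and 7.94 in knockouts 1 to 3, against 7.84, 7.92 and 7.86 in controls 1 to 3 (0.21, 0.0014 to 0.43, limma adjusted p = 0.909). Eda, the ligand that drives placode growth, read 6.78, 7.02 and 6.92 in knockouts 1 to 3, against 7.19, 7.06 and 7.05 in controls 1 to 3 (−0.19). Its 4 dimmer probe sets differed by −0.17 to 0.087. For both genes the groups did not overlap in the brightest probe set, which makes 2 of 8 beside 11.6% of all probe sets. Wnt10b differed by −0.18.

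Among themselves the condensate genes followed several patterns over the 6 arrays, which are described without a test. Sox18 and the brighter Tbx18 probe set were alike (Pearson r = 0.91 over 6 arrays), both lowest in knockout 1. Prdm1 and Alx4 were alike (r = 0.90), both highest in knockout 1, and Sox2 and Foxd1 less so (r = 0.78). Alx4 and Foxd1 ran opposite (r = −0.85), though Alx4 spanned only 0.16 below the array medians and Foxd1 exceeded them on 1 of 6 arrays. These r values are the highest or lowest that a gene had with the other condensate genes. Across the 10 probe sets knockout 1 was the lowest array in 5 and the highest in 4.

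Outside the set, the gene most alike to each was looked up among 11843 genes with a signal above the median. Each r is the highest of that number, over the same 6 arrays. For Sox18 it was Cd248, a surface protein of pericytes and fibroblasts (r = 0.998). Cd248 read 8.43, 9.70 and 9.60 in knockouts 1 to 3, against 8.97, 9.67 and 9.55 in controls 1 to 3, the same low replicate 1 arrays. For Tbx18 it was the transcription factor Ebf3 (r = 0.996), at 6.11, 6.81 and 7.04 in knockouts 1 to 3, against 6.78, 7.15 and 7.15 in controls 1 to 3. Sox2 had Rrp1b (r = 0.993), Foxd1 had 2700038G22Rik (r = 0.993), Prdm1 had Ubqln1 (r = 0.997) and Alx4 had Rc3h2 (r = 0.981). Cxcr4 had Adam10 (r = 0.987) and Cdkn1a had Dnase1l3 (r = 0.984), which differed by 0.66 between the groups.

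**Figure D4:**
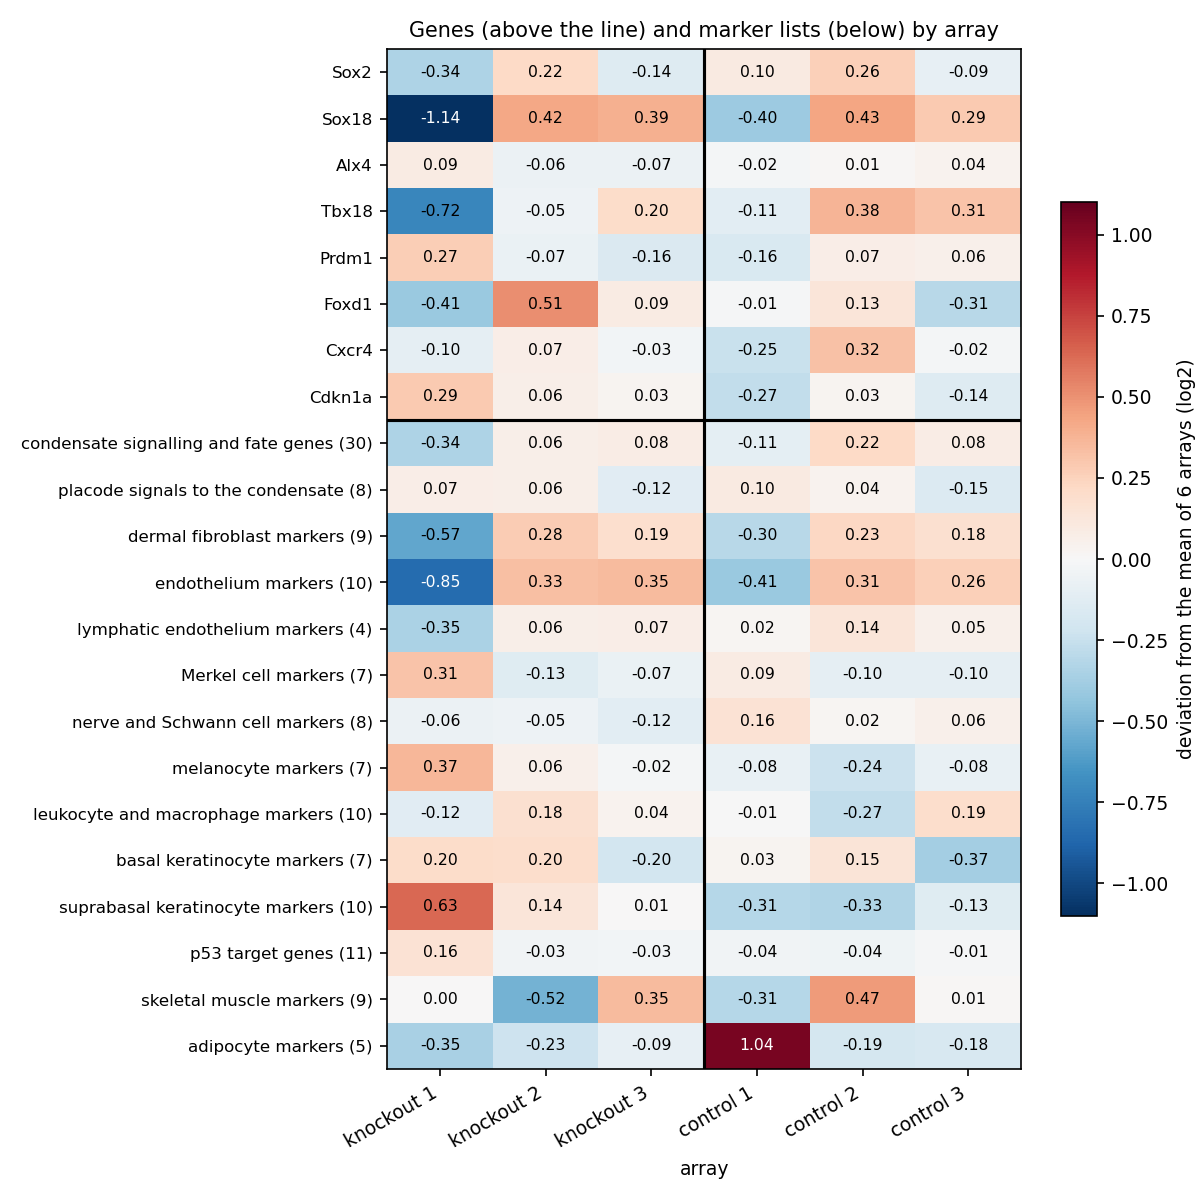
Deviation of each array from the mean of 6 arrays (log2, colour and printed value), for the brightest probe set of the 8 genes (above the line) and for the mean of each marker list (below, with the number of genes measured). Columns are knockouts 1 to 3 and controls 1 to 3. Sox18, Tbx18, endothelium and dermal fibroblast markers are all lowest in knockout 1, where suprabasal keratinocyte markers are highest.

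The remaining lists are given as counts. Of 7 melanocyte markers 7 were higher in knockouts (median 0.26), Tyrp1 lay below the array medians, and 6 were higher without replicate 1 of both groups. Their mean levels were 7.73 to 8.12 in knockouts and 7.51 to 7.67 in controls, without overlap. The nerve, suprabasal and melanocyte lists separated in this way, and no share was computed to set beside separated list means. Of 7 basal keratinocyte markers 5 were higher (median 0.22). Of 9 skeletal muscle markers 7 were lower (median −0.16), and 8 were lower without replicate 1 of both groups. Their mean level was 10.55, 10.03 and 10.90 in knockouts 1 to 3, against 10.24, 11.02 and 10.56 in controls 1 to 3, lowest in knockout 2. Of 5 adipocyte markers 3 were lower (median −0.020). In each of these lists 0 passed the test. At an unadjusted limma p under 0.05 there was 1 gene each among the condensate, placode, nerve, leukocyte and p53 lists. These lists held 30, 8, 8, 10 and 11 measured genes. The suprabasal list had 7 of 10 and the others had 0, beside 5.21% of all probe sets.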

How the data were processed

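The deposited values are RMA summaries per probe set, made by the authors per the submitters' processing notes, and were read as log2 because they run from 2.39 to 14.8 with array medians of 5.99 to 6.03. No source used here writes the log base. RMA makes the arrays' distributions nearly equal, so a shift of most genes would not show, and it draws differences of dim probe sets toward 0. Detection calls were not used.

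Of 45101 rows, 64 array controls were left out. Names came from the platform annotation, updated by Entrez identifier to GRCm38.p6. Of 45037 probe sets 34945 carried 1 symbol, 932 had several and 9160 had none. Entries of that table were found for 34741. The brightest probe set stood for a gene.

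Knockout minus control was fitted over all 45037 probe sets with limma 3.58.1 in R 4.3.3 (lmFit, eBayes, two-sided, no covariates), with Benjamini-Hochberg adjustment and 95% intervals. The number of arrays, 3 per group, limits the precision. The fit was tested on simulated data. Figures used matplotlib 3.10.9.

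The genes and lists were chosen with earlier results of these data known, so lists are described by counts and medians only. Genes named are the condensate genes, Fzd6, up to 3 genes per list with the smallest p, and the gene most alike to each. Col1a1, Col3a1 and Krt14 were named as tissue checks, and Tyrp1, Prox1, Flg, Pou4f3 and S100b as markers below the array medians, after their values were seen. Alpl and Sox10 were also named after their values were seen.

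Deviations of same-numbered arrays from their group means correlated at 0.568, 0.359 and 0.124 for numbers 1 to 3, all above 0.1, and were treated as pairs for the replicate block. Of the unmatched combinations, knockout 3 correlated with control 2 at 0.42, above the values for numbers 2 and 3. The pairing therefore rests on the data and is weak for both of these numbers. Knockout 3 and control 2 also shared a low Y-linked signal, at 3.15 and 3.12 when averaged over 3 genes. The other arrays read 7.88 to 8.39. Numbers 2 and 3 each set a high array against a low array, in opposite directions between the genotypes. Single differences within these numbers therefore cannot separate Y-linked signal from genotype. Its part in the correlation of 0.42 was not tested. What a number marks is not in the labels. Alternatives were a variance trend, a filter at the median level, further quantile normalisation, median centring, array weights, the Y-linked mean as a covariate, the replicate block, arrays left out, and the mean of a gene's probe sets.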

Additional observations from a re-analysis of the deposited data

How the results depend on the processing

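No condensate gene passed limma's adjusted threshold in any alternative. Tbx18, Cdkn1a and Sox2 kept their direction in all of them, with −0.58 to −0.12 for the brighter and −0.55 to −0.36 for the dimmer Tbx18 probe set, 0.17 to 0.33 for the brighter Cdkn1a one and −0.33 to −0.050 for Sox2 when single arrays were left out. The other 5 genes turned sign when single arrays were left out, with ranges of −0.48 to 0.30 for Sox18, −0.10 to 0.11 for Prdm1, −0.17 to 0.12 for Cxcr4, −0.077 to 0.0022 for Alx4 and −0.096 to 0.36 for Foxd1. With array weights Sox18 stood at 0.013 and Prdm1 at −0.095, and without replicate 1 of both groups they stood at 0.046 and −0.18, and the cause was not tested. Alx4 and Foxd1 have no value with probe sets below the median level left out, since theirs were among them.

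With the replicate block 3 of all 45037 probe sets passed, none of them of these genes, where 0 passed without it. The unadjusted p in that blocked limma fit was 0.000597 for the dimmer and 0.00794 for the brighter Tbx18 probe set and 0.0265 for the dimmer Cdkn1a one, with adjusted p = 0.335, 0.34 and 0.369. The block changed no other call. Counts of list genes without replicate 1 were chosen after seeing the data, and those of fibroblast, endothelium, leukocyte and adipocyte markers that were lower moved by over 1.5 times, to 2 of 9, 3 of 10, 3 of 10 and 1 of 5. The Alx4, Foxd1 and Sox2 signals near or below the array medians limit what could be detected for them.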
